A study of Mus musculus with 9 samples.

Results

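The genes described are those of the insulin-like growth factor (IGF) system: the ligand gene Igf1, the receptor gene Igf1r and the binding protein genes Igfbp2 to Igfbp7. The 8 symbols were looked up in a table of 14020 mouse genes and 6 had a row. Igfbp2 and Igfbp5 were not analysed here. RNA was sequenced from cultures of hepatic stellate cells, which wrap the liver sinusoids, store vitamin A and turn into matrix-making myofibroblasts in injury. There were 9 libraries, 3 in each group. Their genotypes were Nbr1-Sqstm1 double-knock-out (written DKO-labelled below), Sqstm1 knock-out (Sqstm1 KO) and wild type (WT). Sqstm1 encodes the autophagy receptor p62 and Nbr1 a related receptor. Cells of every group had been kept for 4 days in DMEM with 10% fetal bovine serum, glutamine and antibiotics, with no further treatment. The sources used here do not give the alleles, the cell type in which a gene was deleted, the age of the animals or whether animals were pooled. The labels do not say that replicates came from separate animals, so p-values measure the spread between these samples. The study's text calls them biological replicates and names an Nbr1 knock-out too, a genotype that none of these 9 libraries carries by its label.

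IGF1 binds the receptor tyrosine kinase IGF1R, which signals through IRS adaptors to the PI3K-AKT and RAS-MAPK cascades and drives growth and survival. The high-affinity binding proteins hold IGF1 and IGF2 in the extracellular space and set how much of either reaches the receptor, and proteases such as PAPP-A release the ligand by cutting them. In the liver, hepatocytes make most of the circulating IGF1, while much of the binding protein is made by other liver cells, stellate cells among them.

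Each library held between 819677 and 1467793 counted reads, and a normalized count is a gene's reads divided by a size factor of its library. Sqstm1 averaged 45.7 ± 17.7 normalized counts in the DKO-labelled libraries, 52.8 ± 29.8 in Sqstm1 KO and 240.4 ± 16.1 in WT (SD, n = 3 each), lower than WT in both (limma adjusted p = 0.00116 and 0.0023). Nbr1 averaged 90.7 ± 17.5, 78.9 ± 8.85 and 101 ± 7.64 in the same order (limma adjusted p = 0.722 for DKO-labelled against Sqstm1 KO), so its RNA level did not check the double knock-out label, and each direction drawn from that group rests on the label. Sqstm1 KO replicate 3 stood apart, with correlations of 0.853 and 0.847 with the other libraries of its group across 10118 genes, against 0.878 to 0.966 in every other within-group pair (a description, as genes are not replicates). Reads of Uty, Kdm5d, Ddx3y and Eif2s3y, which lie on the Y chromosome, numbered 0 in Sqstm1 KO and were present in both other groups, so genotype and the presence of such reads cannot be told apart in comparisons with Sqstm1 KO. Between the other groups Eif2s3y alone was called, with 5.74, 10.3 and 29.3 normalized counts in DKO-labelled and 72.2, 64.8 and 60.6 in WT libraries (limma adjusted p = 0.0162). Ddx3y was lower in DKO-labelled libraries without overlap but was not called (adjusted p = 0.353). Kdm5d and Uty overlapped between these groups and were not called (adjusted p = 0.978 and 0.657). Of 16 stellate cell markers 10 were measured, among them Pdgfrb, Pdgfra, Col1a1 and Acta2, and their summed level was 4417 to 6523 in DKO-labelled, 4928 to 5898 in Sqstm1 KO and 1445 to 1621 in WT libraries. The largest means in this sum were those of Col1a1 (1864, 1810 and 751 in that order) and Col1a2 (1733, 2110 and 293). Pdgfrb and Pdgfra did not follow the sum. Pdgfrb averaged 66.2, 52.9 and 55.9, and Pdgfra, at 234, 74.1 and 98.6, was lowest in Sqstm1 KO. The defining markers Lrat, Des and Reln were not analysed here. The strand setting of the read counting is not given. Tagln, a contractile gene, averaged 237, 462 and 114 normalized counts in DKO-labelled, Sqstm1 KO and WT libraries, and Pcsk7, whose exons overlap it on the other strand, averaged 10142, 19637 and 2116. ND6, which lies on the opposite strand from the other mitochondrial mRNA genes, averaged 9085, 21683 and 9431 in that order. Levels are therefore not ranked between genes. Whether reads of the opposite strand are part of the values below was not tested for any gene, with or without an annotated overlap. Each value is thus a count under the gene's name, not shown to come from its own strand.

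The binding protein genes did not change as a block. Igfbp4 and Igfbp3 were highest in the DKO-labelled libraries, and Igfbp6 was highest in WT and lowest in Sqstm1 KO. Igfbp7 was higher in every knock-out library of both groups than in any WT library, though only Sqstm1 KO was called against WT in the main fit. The receptor gene Igf1r was not called in any comparison, and Igf1 reads were few. A gene is called here when its limma p, adjusted over all tested genes by the Benjamini-Hochberg method, is under 0.05. The low-value filter asked for a normalized count of at least 10 in at least 3 libraries, and log2 fold changes are of the normalized count + 1.

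In the limma model fitted across all 10118 genes that passed the low-value filter, 4 of the 6 measured genes were tested: Igf1r, Igfbp4, Igfbp6 and Igfbp7. Of these, Sqstm1 KO against WT gave 2 higher and 1 lower, where 2.43% of all tested genes were called higher, 3.18% lower and 5.61% in either direction. DKO-labelled against Sqstm1 KO gave 2 higher and 0 lower, where 4.42% of all tested genes were called higher and 1.51% lower, 5.93% in all. DKO-labelled against WT gave 1 higher and 0 lower, where 4.11% were called higher and 2.31% lower, 6.42% in all. The libraries of the groups did not overlap for 4, 2 and 3 of the 4 members in these comparisons, beside 26.0%, 21.0% and 31.2% of all tested genes. These 3 comparisons share groups and are not independent. Igfbp4 passed the filter through the DKO-labelled libraries and Sqstm1 KO replicate 3, where it was high, and Igfbp6 through the WT libraries and 2 DKO-labelled libraries, so neither is an unselected gene. Igf1 and Igfbp3 fell below the filter and are given by their reads.

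The 3 members that were called in at least 1 comparison are shown by their promoters, since their levels were ordered differently over the groups. The sequences run from 250 bases before to 50 bases after the gene start in RefSeq (build GRCm38.p6, an earlier build than the GRCm39 of the authors' processing). Capitals mark the letters of the motifs searched on both strands, which were the TATA box as TATAAA, the GC box as GGGCGG, the AP-1 motif as TGANTCA, the STAT-type motif as TTCNNNGAA and the FOXO motif as GTAAACA.
Igfbp4 promoter, chr11:99040994-99041293, plus strand: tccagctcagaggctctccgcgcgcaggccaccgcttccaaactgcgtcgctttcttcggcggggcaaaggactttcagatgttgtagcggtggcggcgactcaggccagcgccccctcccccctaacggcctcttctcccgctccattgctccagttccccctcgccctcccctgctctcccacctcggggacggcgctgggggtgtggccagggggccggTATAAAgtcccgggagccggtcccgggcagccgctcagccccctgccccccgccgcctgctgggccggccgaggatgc
Igfbp6 promoter, chr15:102143936-102144235, plus strand: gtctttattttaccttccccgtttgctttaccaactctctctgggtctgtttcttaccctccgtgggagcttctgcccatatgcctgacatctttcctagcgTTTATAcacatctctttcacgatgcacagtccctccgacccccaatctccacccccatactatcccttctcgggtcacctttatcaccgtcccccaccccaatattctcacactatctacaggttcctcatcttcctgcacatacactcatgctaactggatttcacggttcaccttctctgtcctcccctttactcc
Igfbp7 promoter, chr5:77407996-77408295, minus strand: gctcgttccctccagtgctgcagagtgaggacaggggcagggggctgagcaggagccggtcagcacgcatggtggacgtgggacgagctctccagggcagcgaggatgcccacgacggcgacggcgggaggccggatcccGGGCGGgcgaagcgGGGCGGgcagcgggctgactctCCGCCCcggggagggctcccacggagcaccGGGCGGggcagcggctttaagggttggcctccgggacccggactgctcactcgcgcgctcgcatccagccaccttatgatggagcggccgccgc

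Igfbp4 carried a TATAAA 28 bases before its start, a motif that 13.6% of the 32817 promoters in the table hold, and Igfbp6 carried it on the other strand (TTTATA), with the first letter at position -148 from the start. Igfbp7 carried 4 GC boxes (35.6% of promoters hold at least 1) and no TATAAA. No match to the AP-1, STAT-type or FOXO letters was found in these 3 windows, and 7.81%, 8.29% and 3.65% of all promoters hold them. The GC content was 71.3% for Igfbp4, 49.7% for Igfbp6 and 73.3% for Igfbp7, beside a median of 52.7% over all promoters. Matches are descriptions of these windows and not binding sites.

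The ligand gene Igf1 was near the limit of detection. It had 0, 4.57 and 0 normalized counts in the DKO-labelled libraries, 1.02, 2.43 and 1.08 in the Sqstm1 KO libraries and 5.45, 6.03 and 5.46 in WT. The 3 WT libraries lay above every knock-out library. These values rest on 4 reads over the DKO-labelled group (95% Poisson interval 1.09 to 10.2), 5 reads over Sqstm1 KO (1.62 to 11.7) and 21 over WT (13.0 to 32.1). Without the filter on low values, where all 14020 genes were tested, neither knock-out group was called against WT (limma log2 fold change -1.91, SE 0.72, adjusted p = 0.149 for DKO-labelled and -1.45, SE 0.72, adjusted p = 0.313 for Sqstm1 KO).

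Igf1r, the receptor, was not called in any of the 3 comparisons. It stood at 66.9, 54.8 and 44.6 normalized counts in the DKO-labelled libraries, against 72.5, 85.2 and 59.7 in Sqstm1 KO libraries and 46.3, 54.2 and 59.4 in WT. The Sqstm1 KO libraries lay just above the WT libraries, with Sqstm1 KO replicate 3 and WT replicate 3 almost level, and the DKO-labelled libraries overlapped both. The log2 fold change was 0.43 for Sqstm1 KO against WT (95% interval -0.15 to 1.00; limma adjusted p = 0.416), -0.38 for DKO-labelled against Sqstm1 KO (-0.96 to 0.19; adjusted p = 0.467) and 0.04 for DKO-labelled against WT (-0.53 to 0.62; adjusted p = 0.946). The intervals hold the differences that these data leave possible, so the lack of a call does not show equal levels.

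**Figure D1:**
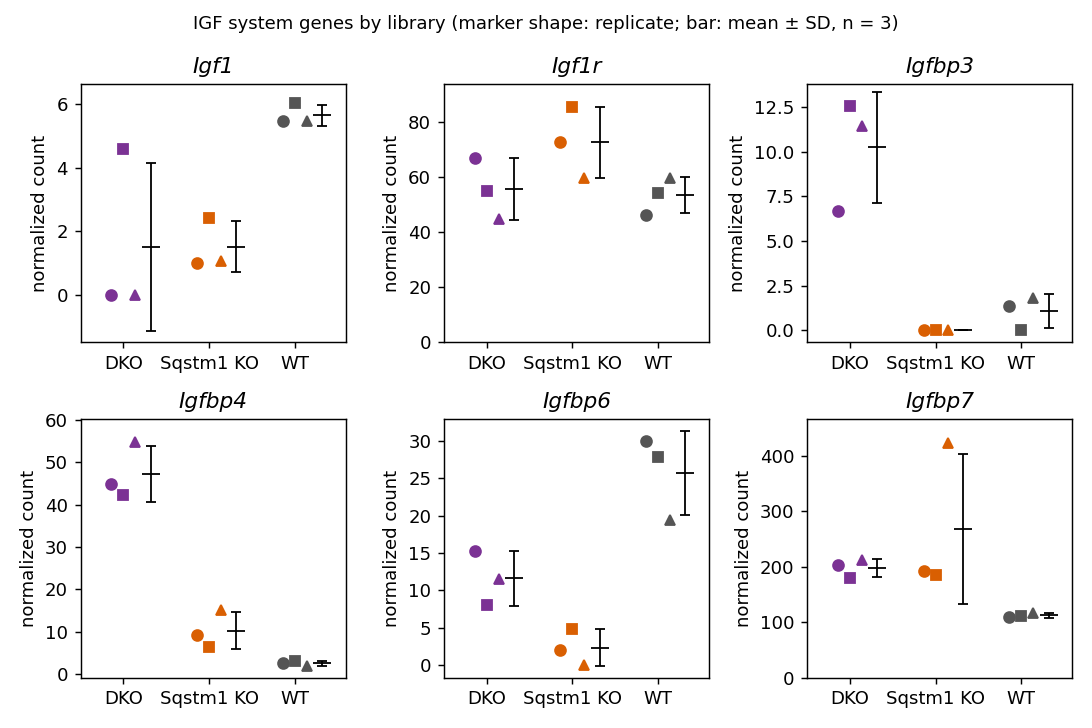
Normalized counts (vertical axis, linear, a separate scale for each gene) of the 6 measured IGF system genes in each library, with DKO-labelled (DKO), Sqstm1 KO and WT groups along the horizontal axis; points are libraries and the bar is the mean ± SD of 3. Igfbp4 is highest in the DKO-labelled libraries (42.2 to 54.8), Igfbp6 in the WT libraries (19.4 to 30.0), and Sqstm1 KO replicate 3 is the high point of Igfbp7 at 424.

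Igfbp4, whose product binds and mostly restrains both IGFs and is the main substrate of PAPP-A, differed between all 3 groups. It had 44.9, 42.2 and 54.8 normalized counts in the DKO-labelled libraries, 9.19, 6.49 and 15.2 in the Sqstm1 KO libraries and 2.72, 3.01 and 1.82 in WT. No library of a group overlapped those of another. The group means were 47.3 ± 6.59, 10.3 ± 4.45 and 2.52 ± 0.62 in that order (SD, n = 3 each). The DKO-labelled libraries were higher than WT (log2 fold change 3.79 with an SE of 0.42, limma adjusted p = 6.82e-05) and higher than Sqstm1 KO (2.16, SE 0.42, adjusted p = 0.00609). Sqstm1 KO was higher than WT (1.62, SE 0.42, adjusted p = 0.0359). As Igfbp4 passed the filter through the DKO-labelled libraries and Sqstm1 KO replicate 3, these are calls of a selected gene. The means differed 18.8-fold, 4.60-fold and 4.09-fold, while log2 fold changes of values + 1 understate the change of such low genes. The reads over the group were 127 in DKO-labelled (95% Poisson interval 106 to 151), 31 in Sqstm1 KO (21.1 to 44.0) and 9 in WT (4.12 to 17.1).

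The call of Igfbp4 against WT in the DKO-labelled libraries was kept whichever of the 9 libraries was left out. That against Sqstm1 KO was lost without DKO-labelled replicate 3 (limma adjusted p = 0.0605). With only the Sqstm1 KO and WT libraries fitted, Igfbp4 fell below the filter and was not tested. The step between Sqstm1 KO and WT was the least firm, and it stayed called only when Sqstm1 KO replicate 2 was the library left out. It was lost on leaving out WT replicates 1, 2 or 3 (adjusted p = 0.0916, 0.0955 and 0.132), Sqstm1 KO replicates 1 or 3 (0.074 and 0.0875) or DKO-labelled replicates 1, 2 or 3 (0.0569, 0.0612 and 0.0748), with log2 fold changes of 1.33 to 1.73 in those fits, and with a pseudocount of 5 (0.99, adjusted p = 0.067).

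Igfbp3, the main carrier of IGF1 in serum, was also highest in the DKO-labelled libraries, at low counts. It had 6.69, 12.6 and 11.5 normalized counts there, 0 in each Sqstm1 KO library and 1.36, 0 and 1.82 in WT. The DKO-labelled libraries lay above all 6 others. The reads were 27 over the DKO-labelled group (95% Poisson interval 17.8 to 39.3), 0 over Sqstm1 KO and 4 over WT (1.09 to 10.2). Against the floor of 3 reads over the group, a mean of 0.972, the DKO-labelled mean of 10.2 ± 3.12 (SD, n = 3) was at least 10.5-fold higher than Sqstm1 KO, and it was 9.66-fold the WT mean. With no filter on low values the gene was called in both comparisons (limma adjusted p = 0.00424 against Sqstm1 KO and 0.0298 against WT).

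Markers of other mesenchymal cells did not share 1 order of groups, and those with the order of Igfbp3 or Igfbp4 were a part of the list. Of 10 portal fibroblast and mesothelial markers 5 were measured, with summed levels of 326 to 345 in DKO-labelled, 242 to 430.1 in Sqstm1 KO and 176 to 226 in WT libraries. Fbln1, which encodes the matrix protein fibulin-1, had 25.8, 16.0 and 12.7 normalized counts in the DKO-labelled libraries, 0 in each Sqstm1 KO library and 0, 2.26 and 1.21 in WT. It passed the low-value filter only through the DKO-labelled libraries, so its calls are no support for a difference. Wt1, a mesothelial transcription factor, had 1.91, 12.6 and 2.55 in the DKO-labelled libraries and 0 in each library of the other groups. Cd34 averaged 13.4 in DKO-labelled, 6.74 in Sqstm1 KO and 2.07 in WT libraries. Its exons overlap those of Gm16897 on the other strand, which had 131 to 194 in DKO-labelled, 77.9 to 100 in Sqstm1 KO and 1.21 to 6.81 in WT libraries. Fbln2 and Thy1 were instead highest in Sqstm1 KO, with 297, 338 and 191 for Fbln2 and 3.86, 5.97 and 1.56 for Thy1 in the same order of groups. The stellate cell markers were likewise mixed. The proteoglycan gene Dcn averaged 96.2, 25.6 and 1.21 in DKO-labelled, Sqstm1 KO and WT libraries, and Hgf, the hepatocyte growth factor gene, averaged 28.3, 0.994 and 3.73. Smooth muscle actin, Acta2, averaged 382, 819 and 84.5 and was lower in DKO-labelled than in Sqstm1 KO (limma adjusted p = 0.0316), and Col1a2, a collagen I chain, averaged 1733, 2110 and 293. Hand2 averaged 53.2, 83.1 and 19.0. In bulk RNA, more cells of a type and more RNA per cell cannot be told apart, and the part of these markers in the binding protein values was not tested. Defining markers of hepatocytes (Alb), leukocytes (Ptprc) and endothelium (Pecam1) were not analysed here.

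Igfbp6, whose product binds IGF2 in preference to IGF1, had the opposite order from Igfbp4 between Sqstm1 KO and WT. It had 15.3, 7.99 and 11.5 normalized counts in the DKO-labelled libraries, against 2.04, 4.87 and 0 in Sqstm1 KO libraries and 30.0, 27.9 and 19.4 in WT. The 3 groups did not overlap: WT was highest and Sqstm1 KO lowest, with reads over the group of 32 in DKO-labelled, 8 in Sqstm1 KO and 91 in WT. Igfbp6 passed the filter through the WT libraries and DKO-labelled replicates 1 and 3, where it was high. Its calls are therefore those of a selected gene, which leaving out a library does not change. Sqstm1 KO was lower than WT (log2 fold change -3.33 with an SE of 0.59, limma adjusted p = 0.00384). This call was kept whichever library was left out, with log2 fold changes of -3.92 to -2.64. DKO-labelled libraries were higher than Sqstm1 KO (2.23, SE 0.59, adjusted p = 0.0404). This second call was lost without any of the 9 libraries other than Sqstm1 KO replicate 2. The adjusted p was 0.0734, 0.0808 and 0.0719 without WT replicates 1, 2 and 3, 0.0624 and 0.0576 without Sqstm1 KO replicates 1 and 3, and 0.174, 0.0661 and 0.156 without DKO-labelled replicates 1, 2 and 3. It was also lost by edgeR's quasi-likelihood test (adjusted p = 0.0637) and with a pseudocount of 0.5 (0.0541). DKO-labelled libraries against WT were not called (-1.11, SE 0.59, 95% interval -2.38 to 0.16, adjusted p = 0.303).

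The macrophage co-receptor gene Cd14 had the same order of groups, with 11.1 ± 5.90 normalized counts in DKO-labelled, 1.29 ± 1.59 in Sqstm1 KO and 17.6 ± 3.73 in WT libraries (SD, n = 3 each; limma adjusted p = 0.00459 for Sqstm1 KO against WT). Cd14 passed the low-value filter through the WT libraries and DKO-labelled replicate 3, where it was high, so its call is that of a selected gene. Of 10 macrophage markers 4 were measured, with summed levels of 14.3 to 29.3 in DKO-labelled, 8.68 to 12.3 in Sqstm1 KO and 20.3 to 35.4 in WT libraries. The other 3 did not follow this order. Cd68 averaged 4.04, 3.98 and 4.28 in DKO-labelled, Sqstm1 KO and WT libraries, while Csf1r (3.20, 3.05 and 1.97) and Mpeg1 (2.67, 2.71 and 1.77) were lowest in WT. The part of these cells in the Igfbp6 values was not tested.

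The balance of Igfbp4 to Igfbp6 within a library separated WT from the knock-out groups. The log2 ratio of Igfbp4 to Igfbp6, with 1 added to each value, was 1.50, 2.27 and 2.16 in the DKO-labelled libraries, 1.74, 0.35 and 4.02 with Sqstm1 KO and -3.06, -2.85 and -2.86 with WT. All 6 knock-out libraries had a higher ratio than any WT library. This follows from the values above, as each knock-out library exceeded WT for Igfbp4 and lay below WT for Igfbp6. It is no further support for either difference. Sqstm1 KO varied most, with only 2, 6 and 0 reads of Igfbp6 in its libraries. The ratio is of normalized counts and not per length, so its sign does not rank the levels of the genes. This pair was chosen after its values were seen and the ratio was not tested.

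Igfbp7, which encodes a matrix-associated relative of the binding proteins with weak affinity for IGFs, was higher in Sqstm1 KO than in WT. It had 203, 180.4 and 211 normalized counts in the DKO-labelled libraries, 193, 186 and 424 in the Sqstm1 KO libraries and 109, 111 and 116 in WT. All 6 knock-out libraries lay above the WT libraries, and the DKO-labelled values lay within the Sqstm1 KO range apart from replicate 2, which was just below it. The log2 fold change of Sqstm1 KO against WT was 1.14 (SE 0.30, limma adjusted p = 0.0416). Without the high Sqstm1 KO replicate 3 it was 0.75 and still called. It was lost on leaving out WT replicates 1, 2 or 3 (adjusted p = 0.14, 0.166 and 0.121) or DKO-labelled replicates 1, 2 or 3 (0.0564, 0.0562 and 0.0733), and when only these 2 groups were fitted (0.0949). DKO-labelled against WT was not called (0.81, SE 0.30, 95% interval 0.17 to 1.46, adjusted p = 0.133), but was called when Sqstm1 KO replicate 3 was left out (adjusted p = 0.0102) or when only these 2 groups were fitted (0.0168). DKO-labelled against Sqstm1 KO was -0.32 (95% interval -0.97 to 0.32, adjusted p = 0.6), and it was 0.06 once Sqstm1 KO replicate 3 was dropped.

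Exons of Igfbp7 overlap those of Polr2b, an RNA polymerase II subunit gene on the other strand, by 85 bases in GENCODE release M21. Polr2b had 327, 2189.7 and 1219 normalized counts in the DKO-labelled libraries, against 1090.3, 1110.3 and 2485 in Sqstm1 KO libraries and 714, 679 and 700.4 in WT. Polr2b was highest in Sqstm1 KO replicate 3, as was Igfbp7, while DKO-labelled replicate 1 was lowest for Polr2b and not for Igfbp7. Polr2b was not called in any comparison (limma adjusted p = 0.309, 0.593 and 0.683 for Sqstm1 KO against WT, DKO-labelled against Sqstm1 KO and DKO-labelled against WT), and its part in the Igfbp7 values was not tested. The other 5 measured members have no such overlap in that annotation, which does not tell from which strand their reads were counted.

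**Figure D2:**
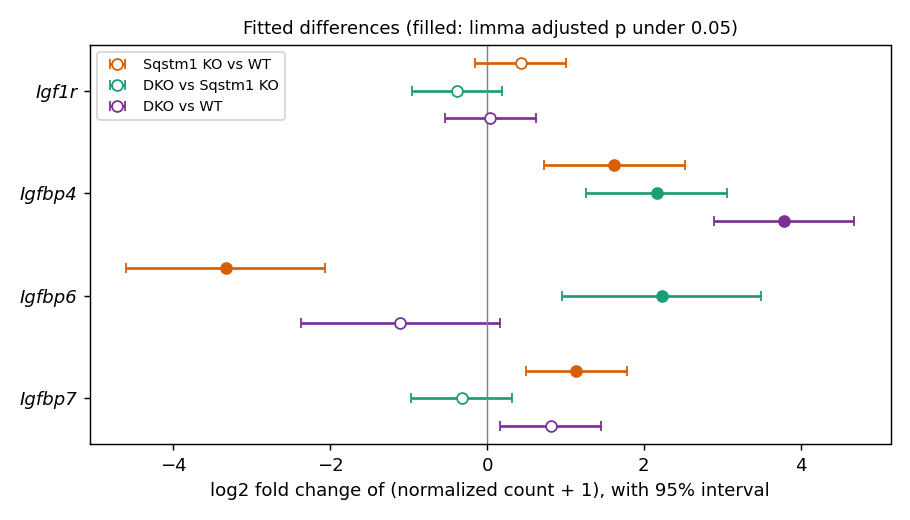
Log2 fold changes of normalized count + 1 (horizontal axis) with 95% intervals for the 4 tested members in the 3 comparisons, DKO meaning the DKO-labelled libraries; filled points have a limma adjusted p under 0.05. Igfbp4 is positive in every comparison, and Igfbp6 is -3.33 in Sqstm1 KO against WT and 2.23 in DKO-labelled against Sqstm1 KO.

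**Figure D3:**
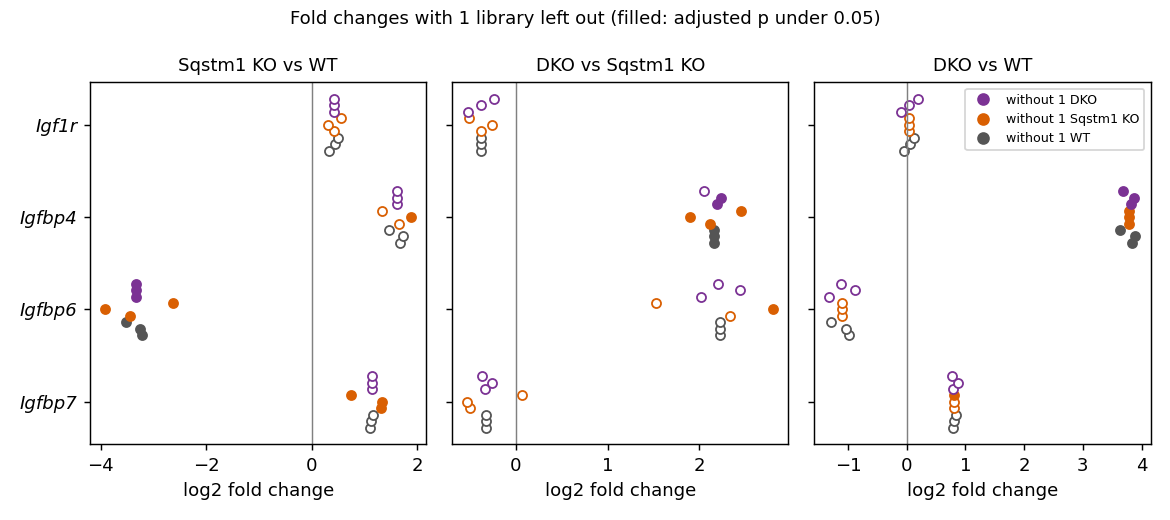
Log2 fold changes of the same genes (horizontal axis, 1 panel per comparison) with each of the 9 libraries left out in turn, coloured by the group of the missing library; filled points have a limma adjusted p under 0.05. Igfbp6 in Sqstm1 KO against WT and Igfbp4 in DKO-labelled against WT stay filled throughout, while Igfbp4 and Igfbp7 in Sqstm1 KO against WT are mostly open.

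Genes with the most similar profile to each called member were sought among 8616 tested, named genes. Likeness was the root mean square difference between log2 values over the 9 libraries after centring each gene on its own mean. Nearest to Igfbp4 were Brf2 (0.35), Ccdc27 (0.36) and Tifa (0.39), beside a spread of 1.58 for Igfbp4 itself. Tifa, an adaptor of innate immune signalling, averaged 164 normalized counts in DKO-labelled, 53.5 in Sqstm1 KO and 17.4 in WT libraries. Nearest to Igfbp6, whose own spread was 1.53, were Sash1 (0.39), Galnt13 (0.45) and Adam21 (0.50). Sash1, a signalling scaffold gene, averaged 34.1, 6.64 and 77.9 in the same order of groups. For Igfbp7, with a spread of 0.58, they were the replication-licensing inhibitor Gmnn (0.12), the RNA-binding protein gene Hnrnpf (0.15) and the ribosomal protein gene Rpl11 (0.165). Gmnn averaged 55.4, 65.9 and 28.3. Brf2, Tifa, Sash1 and Hnrnpf overlap exons of genes on the other strand.

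A list of 74 other genes of insulin and IGF signalling was followed through the same fit, of which 61 had values and 56 were tested. In Sqstm1 KO against WT 2 were higher, 3 lower and 51 not called, a share of 8.93% where 5.61% of all genes were called, with a median log2 fold change of -0.18 against -0.01 over all genes. Without Sqstm1 KO replicate 3 that median was 0.01. In DKO-labelled against Sqstm1 KO 3 were higher and 1 lower (7.14% where 5.93% of all genes were called, median -0.06), and in DKO-labelled against WT 3 were higher and 1 lower (7.14% where 6.42% were called, median -0.11). These shares are near the background, and no result about the list as a whole is read from them. Without Sqstm1 KO replicate 3, DKO-labelled against WT gave 9 called list genes and 1409 called genes in all. The ligand genes Igf2, Ins1 and Ins2 and the carrier genes Igfbp1 and Igfbpl1 were not analysed here.

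Neither Insr nor Igf2r, the other receptor genes measured, was called. Insr, the insulin receptor, had 34.4, 55.9 and 36.9 normalized counts in the DKO-labelled libraries, 27.6, 37.3 and 11.9 in the Sqstm1 KO libraries and 31.3, 30.1 and 26.1 in WT. Igf2r, which clears IGF2 by carrying it to lysosomes, had 96.6, 140.4 and 85.3 in DKO-labelled, 64.3, 91.7 and 18.4 in Sqstm1 KO and 62.6, 88.9 and 97.0 in WT. Sqstm1 KO replicate 3 was the lowest library for both. The limma adjusted p for Igf2r was 0.399 in Sqstm1 KO against WT, 0.205 in DKO-labelled against Sqstm1 KO and 0.702 in DKO-labelled against WT.

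Of the receptor adaptors, Grb10, which binds IGF1R and the insulin receptor and restrains their signalling, rose in both knock-out groups. It had 129, 104 and 118 normalized counts in the DKO-labelled libraries, against 168, 232 and 106 in Sqstm1 KO libraries and 30.0, 27.9 and 22.4 in WT. All 6 knock-out libraries were above 100 and all WT libraries at or below 30.0. The log2 fold change against WT was 2.55 in Sqstm1 KO (SE 0.30, limma adjusted p = 0.000134) and 2.09 in DKO-labelled (SE 0.30, adjusted p = 0.00054), and both calls were kept under every alternative run. No gene on the opposite strand overlaps the exons of Grb10. It was not called between the knock-out groups (-0.46, adjusted p = 0.427).

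Irs1, the docking protein of IGF1R, was lower in Sqstm1 KO than in WT. It had 3.82, 1.14 and 10.2 normalized counts in the DKO-labelled libraries, 1.02, 1.62 and 1.08 in the Sqstm1 KO libraries and 10.9, 9.79 and 13.3 in WT. The Sqstm1 KO libraries lay below all WT libraries, and the DKO-labelled libraries spread over both. Irs1 passed the low-value filter through WT replicates 1 and 3 and DKO-labelled replicate 3, where it was high. Its call is therefore that of a selected gene, with 4 reads over the Sqstm1 KO group. The fold change of Sqstm1 KO against WT was -2.46 (log2, SE 0.65, limma adjusted p = 0.0421), and it did not hold when WT replicate 2 (adjusted p = 0.176), replicates 1 or 2 of Sqstm1 KO (0.0942 and 0.0673) or DKO-labelled replicate 1 (0.0701) was left out. It held without Sqstm1 KO replicate 3 or DKO-labelled replicate 2 (adjusted p = 0.0496 and 0.0379). Without WT replicates 1 or 3 or DKO-labelled replicate 3 the gene fell below the filter and was not tested. Its exons overlap Gm9747 on the other strand. The related Irs2, which overlaps 9530052E02Rik, averaged 3.48, 12.3 and 8.98 in DKO-labelled, Sqstm1 KO and WT libraries and was not called (adjusted p = 0.122 in DKO-labelled against Sqstm1 KO).

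In the growth hormone axis, which drives Igf1 transcription in hepatocytes, the receptor gene was lower and the kinase gene higher in the DKO-labelled libraries than in Sqstm1 KO. Ghr, the growth hormone receptor, had 12.4, 35.4 and 20.4 normalized counts there, 52.1, 82.8 and 77.0 in Sqstm1 KO and 54.5, 52.0 and 49.7 in WT. Every DKO-labelled library was below every other. Ghr fell against Sqstm1 KO (log2 fold change -1.68 with an SE of 0.35, limma adjusted p = 0.00999) and against WT (-1.28, SE 0.35, adjusted p = 0.044). The first call was lost without DKO-labelled replicates 1 or 3 (adjusted p = 0.0503 and 0.0551). The second was lost without WT replicates 1, 2 or 3 (0.126, 0.159 and 0.133) or DKO-labelled replicates 1 or 3 (0.173 and 0.145).

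Jak2, the kinase bound to that receptor and also used by many cytokine receptors, had 119.5, 143 and 103 normalized counts in the DKO-labelled libraries, against 52.1, 56.8 and 22.8 in Sqstm1 KO libraries and 58.6, 55.0 and 70.9 in WT. The DKO-labelled libraries lay above all others. It was higher in DKO-labelled than in Sqstm1 KO (log2 fold change 1.54, SE 0.33, limma adjusted p = 0.0116), a call lost without DKO-labelled replicate 2 (adjusted p = 0.0529). Against WT it was 0.97 (adjusted p = 0.103), and it was called there without Sqstm1 KO replicate 3 (adjusted p = 0.00831), with only these 2 groups fitted (0.0124) and by DESeq2 (0.0494).

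**Figure D4:**
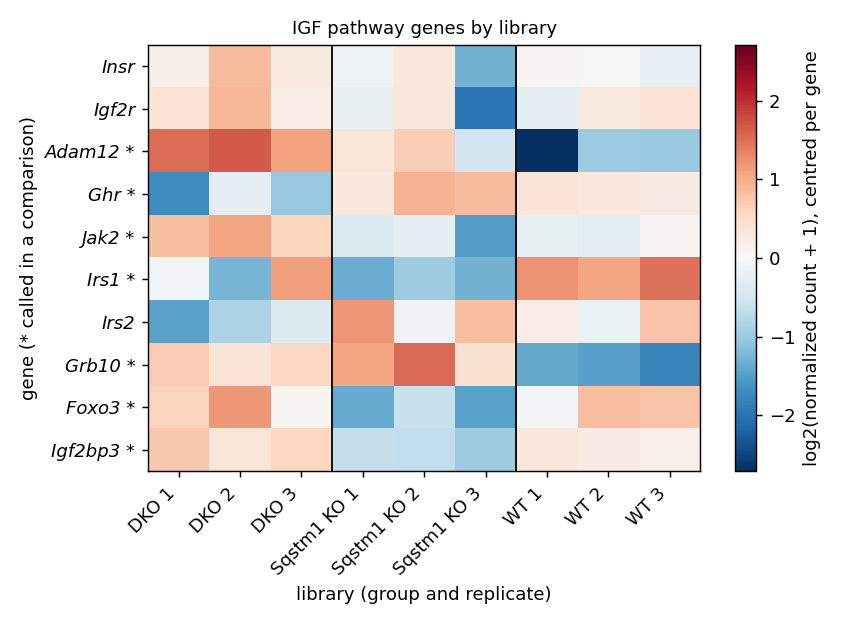
Centred log2 values (colour scale, log2 of normalized count + 1 minus the gene's mean) of Insr, Igf2r, Irs2 and the named list genes that were called in a comparison, which carry an asterisk, in the DKO-labelled (DKO), Sqstm1 KO and WT libraries. Grb10 is below its mean in the WT libraries alone, Ghr is lowest in DKO-labelled replicate 1, and Sqstm1 KO replicate 3 is the lowest library for Igf2r and Insr.

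Among the proteases that cut binding proteins, Adam12, a metalloprotease that can cleave IGFBP3 and IGFBP5, had 43.0, 47.9 and 31.8 normalized counts in the DKO-labelled libraries, 18.4, 23.5 and 9.76 in the Sqstm1 KO libraries and 1.36, 6.78 and 6.67 in WT. The groups did not overlap and had the order of Igfbp4. Adam12 passed the low-value filter through the DKO-labelled libraries and Sqstm1 KO replicates 1 and 2, where it was high. Its calls are therefore those of a selected gene. It was higher in DKO-labelled than in WT (log2 fold change 2.99, SE 0.50, limma adjusted p = 0.00213), a call kept whichever library was left out. DKO-labelled against Sqstm1 KO was 1.26 (SE 0.50, limma adjusted p = 0.186) and was not called, unlike that step of Igfbp4. Sqstm1 KO against WT was 1.73 (adjusted p = 0.0599) and was called without Sqstm1 KO replicate 3 (adjusted p = 0.0174) and by DESeq2 (0.0317). Htra1, a serine protease with binding proteins among its substrates, had 14.3, 17.1 and 25.5 in DKO-labelled, 25.5, 29.2 and 26.0 in Sqstm1 KO and 39.5, 39.9 and 34.6 in WT libraries. It was lower in all 6 knock-out libraries than in any WT library but was not called (adjusted p = 0.0724 in DKO-labelled against WT). Pappa was not analysed here.

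Farther along the pathway, Foxo3, a transcription factor that AKT keeps out of the nucleus, had 39.2, 58.2 and 26.7 normalized counts in the DKO-labelled libraries, against 9.19, 16.2 and 8.68 in Sqstm1 KO libraries and 24.5, 46.0 and 44.3 in WT. The Sqstm1 KO libraries lay below all others. Sqstm1 KO was lower than WT (log2 fold change -1.67, SE 0.39, limma adjusted p = 0.0217), lost on leaving out WT replicates 2 or 3 (adjusted p = 0.131 and 0.11) or Sqstm1 KO replicate 1 (0.0631). DKO-labelled was higher than Sqstm1 KO (1.76, SE 0.39, adjusted p = 0.0141), lost without DKO-labelled replicates 1 or 2 (0.0537 and 0.0665).

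Igf2bp3, which encodes a protein that binds Igf2 mRNA among many others, had 116, 86.8 and 102 normalized counts in the DKO-labelled libraries, 43.9, 43.0 and 34.7 in the Sqstm1 KO libraries and 85.8, 81.4 and 76.4 in WT. Sqstm1 KO again lay below all others. DKO-labelled was higher than Sqstm1 KO (log2 fold change 1.30, SE 0.25, limma adjusted p = 0.00534), a call kept whichever library was left out. Sqstm1 KO was lower than WT (-0.99, SE 0.25, adjusted p = 0.0303), lost on leaving out WT replicates 1, 2 or 3 (adjusted p = 0.113, 0.144 and 0.0941), Sqstm1 KO replicate 1 (0.0582) or DKO-labelled replicate 3 (0.0524), or with only these 2 groups fitted (0.0526). Malsu1, whose exons overlap Igf2bp3 on the other strand, had 60.2 to 85.3 in DKO-labelled, 10.6 to 22.8 in Sqstm1 KO and 63.7 to 92.6 in WT libraries, and its part in these values was not tested.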

How the data were processed

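RNA-seq of mouse stellate cell cultures gave 9 libraries, grouped by their titles into 3 groups of 3. The deposited table holds a signal per gene, read counts scaled by the authors with 1 size factor for each library. The values show this: 100% of 121126 values above 0 were whole multiples (tolerance 0.01) of the smallest value in their library. STAR, DESeq2 and GRCm39 are named per the submitters' processing notes, without versions. Neither the read counter and annotation nor the strand setting and gene filter is stated, and the gene with the fewest reads had 14. All columns were used.

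Tests were limma fits (trend option) on log2(value + 1), over all 9 libraries in 3 groups, for genes reaching a value of 10 in 3 or more libraries. They were two-sided, with Benjamini-Hochberg adjustment over all 10118 genes and a threshold of 0.05. SEs and 95% intervals come from that model, with 14 degrees of freedom. With 3 against 3, exact permutation cannot reach below p = 0.1, so it was not used. A group with no read was given a floor of 3 reads over its libraries. Floors and Poisson intervals cover counting error alone, as reads lacking molecular identifiers may be copies of 1 molecule. On the recovered reads edgeR called 642, 614 and 735 genes and DESeq2 802, 716 and 880 in Sqstm1 KO against WT, DKO-labelled against Sqstm1 KO and DKO-labelled against WT. The members and the gene lists were chosen with earlier results of these data known. Genes named were the members, list genes called in any comparison, fixed examples, nearest profiles and markers. A gene of the list that is counted among the called ones is not reported here by name. Markers and overlapping genes chosen after their values were seen, such as Dcn and Polr2b, are given beside the results they touch. Opposite-strand exon overlaps were looked up by name in GENCODE release M21 (GRCm38), and promoters in RefSeq tables, where all 8 listed members matched. The software was R 4.3.3 with DESeq2 1.42.0, edgeR 4.0.16 and limma 3.58.1.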

Additional observations from a re-analysis of the deposited data

How the results depend on the processing

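No called fold change of a member or list gene named changed sign under those of the 18 alternatives that tested it. In the order Sqstm1 KO against WT, DKO-labelled against Sqstm1 KO and DKO-labelled against WT, the main counts were 568, 600 and 650 called genes, 3, 2 and 1 called members and 5, 4 and 4 called list genes. Requiring a value of at least 50 gave 290, 291 and 360 genes, 1, 0 and 0 members, and 3 list genes in the first comparison. That filter leaves 2 members to test, Igf1r and Igfbp7, of which 1, 0 and 1 had an unadjusted limma p under 0.05 in the 3 comparisons. Fitting only the 2 groups compared gave 351 genes in DKO-labelled against Sqstm1 KO and 1260 in DKO-labelled against WT, 1, 1 and 2 members over the 3 comparisons, and 2 and 8 list genes in the comparisons with WT. With no filter on low values 2 members were called in DKO-labelled against WT, Igfbp3 being added. In DKO-labelled against Sqstm1 KO, a pseudocount of 0.5 and edgeR each called 1 member. The cause of these shifts was not tested beyond the number of genes or samples entering the fit.

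Leaving out each library in turn gave 226 to 651, 243 to 764 and 251 to 1409 genes, 1 to 3, 0 to 2 and 1 to 2 members, and 1 to 6, 2 to 5 and 2 to 9 list genes. The highest gene counts, 651, 764 and 1409, came without Sqstm1 KO replicate 3. The 0 members came without DKO-labelled replicate 3 (limma, with 2 unadjusted p under 0.05). Same-numbered libraries of different groups had correlations of deviations of -0.115 to 0.178, with 5 of 9 pairs over 0.1. Since not every pair was over 0.1 and no label gives the numbers a meaning, they were not taken as pairs. That 6 of 9 libraries correlated best with their own number is a hint from the data towards pairing, not from the design. With the replicate block 690, 672 and 754 genes, 3, 2 and 1 members and 7, 4 and 4 list genes were called, Adam12 in Sqstm1 KO against WT among them (adjusted p = 0.0458). Depth limits Igf1 and Igfbp3 most, with at most 27 reads over a group.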
